A study of Oryzias latipes with 7 samples.

Results

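The 247 probe sets described here had their lowest level on the 2 h array of a time course of medaka ovarian follicles. These probe sets were 4-fold or more higher on every other array, and could also differ widely among those arrays. They were chosen from the measured values. The 7 log2 levels of a probe set were sorted, the largest step between neighbouring levels had to be 2 or more (4-fold), and the 2 h array had to be alone below it. They are 0.517% of the 47773 probe sets kept by a filter on low values, out of 63698 on the array. The low level at 2 h is therefore how the probe sets were picked and is given as a description without a test. The sources used here pair no identifier with a gene, so members are described by their levels and courses, and at most 4 are named by identifier.

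Medaka (Oryzias latipes) is a small teleost that spawns daily under long days. Fish were kept at 27 °C with 14 h of light and 10 h of dark, and RNA from a pool of 100 isolated follicles was hybridised for each stage. The 7 groups are follicles taken 47, 35, 32, 23, 14, 8 and 2 h ahead of spawning, with no treatment or genotype named, and with 1 array (Cy3) each. Any difference between times is thus also a difference between arrays and between pools of follicles, and these cannot be told apart. Follicles of both the largest size class of the ovary and the next were collected, so stage and size class cannot be told apart. The sources used here state neither strain nor age.

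An ovarian follicle is an oocyte enclosed by granulosa and theca cells. During vitellogenesis the oocyte takes up yolk while the follicle cells make oestradiol. A luteinizing hormone surge then shifts the follicle cells to progestin synthesis, the oocyte resumes meiosis and takes up water, and at ovulation the egg leaves the follicle cell layers behind. The probe set values come from whole follicles, in which fewer cells of a type and less RNA per cell cannot be told apart.

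Before the results, 3 facts of the arrays bear on them. The deposited series table places 5 of the 7 arrays under another time, and in that table the array that defines this group stands at 23 h instead of 2 h, while the 35 h array stands at 2 h. A label field of the 2 h sample also reads 5 h. Array numbers have 6 digits at 47, 23, 14 and 2 h and 8 digits at 35, 32 and 8 h, and the median intensity over all probe sets was 653, 643 and 599 on the 8-digit arrays and 682 to 703 on the 6-digit arrays. The times used are those of the per-array records. No array lies a whole number of days from 2 h, so time of day and stage cannot be told apart for the low at 2 h.

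The members gave bright signals before 2 h and mostly ended below the middle of the array. Their mean log2 intensity over the 6 earlier arrays had a median of 12.17 (quartiles 10.80 and 13.60), against 10.60 (8.62 and 12.20) for all kept probe sets. Of the members, 46 (18.6%) lay in the top 5.0% of kept probe sets by that level. A 4-fold lower value needs room above the lowest levels an array reports, so the rule itself favours probe sets that start high. From 47 h to 2 h the median member intensity on the 7 arrays was 4519, 2928, 4564, 7581, 6659, 3094 and 211, highest at 23 h and lowest at 2 h. The array median of all kept probe sets stayed between 1473 and 1669 through the same 7 arrays. The median member stood at percentile 36.4 of all probe sets on the 2 h array and at percentile 74.5 on the 8 h array. Intensity also depends on how well the probes of a set bind, so these ranks describe signal and not amounts of RNA.

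**Figure D1:**
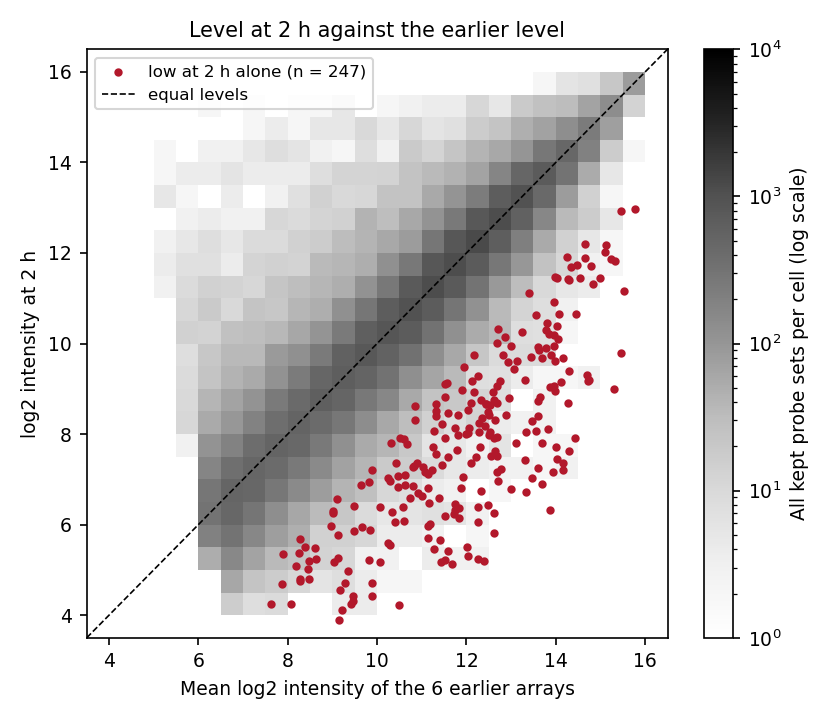
Level at 2 h (log2 intensity, vertical axis) against the mean of the 6 earlier arrays (log2 intensity, horizontal axis). Grey cells count all kept probe sets on a log scale, red points are the 247 members and the dashed line marks equal levels; every member lies below the line, by 2.22 to 7.55 on the log2 scale.

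The size of the step varied widely among the members. The gap between the 2 h level and the lowest earlier level had a median of 2.70 on the log2 scale, or 6.50-fold, and ran up to 5.87, or 58.5-fold. It lay below 2.5 in 101 members (40.9%), from 2.5 to 3 in 63, from 3 to 4 in 41 and at 4 or more in 42 (17.0%). Within the 4 arrays of 6-digit number the gap of the same members to the lowest of 47, 23 and 14 h had a median of 3.48. The lowest of 3 of the earlier arrays cannot lie under the lowest of all 6, so the rule already fixes a gap of 2 or more there, and this value says nothing about the array-number series. Set against 8 h, the 2 h level differed by a median of -3.38 on the log2 scale. It was 8-fold or more lower in 146 members (59.1%), 16-fold or more in 87 (35.2%) and 64-fold or more in 14 (5.67%). Over all kept probe sets these shares were 1.43%, 0.68% and 0.0984%, and since the rule used this contrast nothing is read from the excess.

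Low did not mean at the bottom of the array for most of the members. At 2 h, 57 of the 247 (23.1%) were at or below the filter value of 6.24 on the log2 scale (intensity 75.8), against 4.22% of all kept probe sets. Below the 10th percentile of the 2 h array lay 16 members, against 0.241% of all kept. At 8 h, 0 members were at or below the filter value, against 4.5% of all kept. The rule picks a low level at 2 h and holds 8 h 4-fold or more above it. Nothing is therefore read from these differences to all kept probe sets. The members other than those 57 were above the filter value at 2 h too, and 52 (21.1%) were still above the median of the 2 h array. The member with the highest level at 2 h had intensities of 52317, 58061, 59160, 49907, 52094 and 63891 from 47 h to 8 h and 8080 at 2 h. Its 6 earlier levels lay within a range of 0.36 on the log2 scale, and it was still at percentile 88.6 of the 2 h array. The highest kept values on the arrays were 64267 to 65328, so these earlier levels lay near the top of the scale. Whether that narrowed their range was not tested.

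The largest gaps belonged to a pair of probe sets with the same course. OLAT0001S00010332 had intensities of 8736, 3572, 3374, 14816, 7369 and 2154 on the arrays from 47 h to 8 h, and 36.8 at 2 h. OLAT0001S00011580 had 9538, 3993, 4484, 14803, 8443, 2874 and 56.5 on the same 7 arrays. Both were highest at 23 h, were already at their lowest earlier level at 8 h, and then lay 58.5-fold and 50.9-fold below that level at 2 h. Over the 6 earlier arrays their log2 levels correlated at r = 0.996 and differed by at most 0.42. Of the other 246 members, 2 reached r of 0.95 with the first probe set and 4 with the second, in each case counting the other of the pair.

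**Figure D2:**
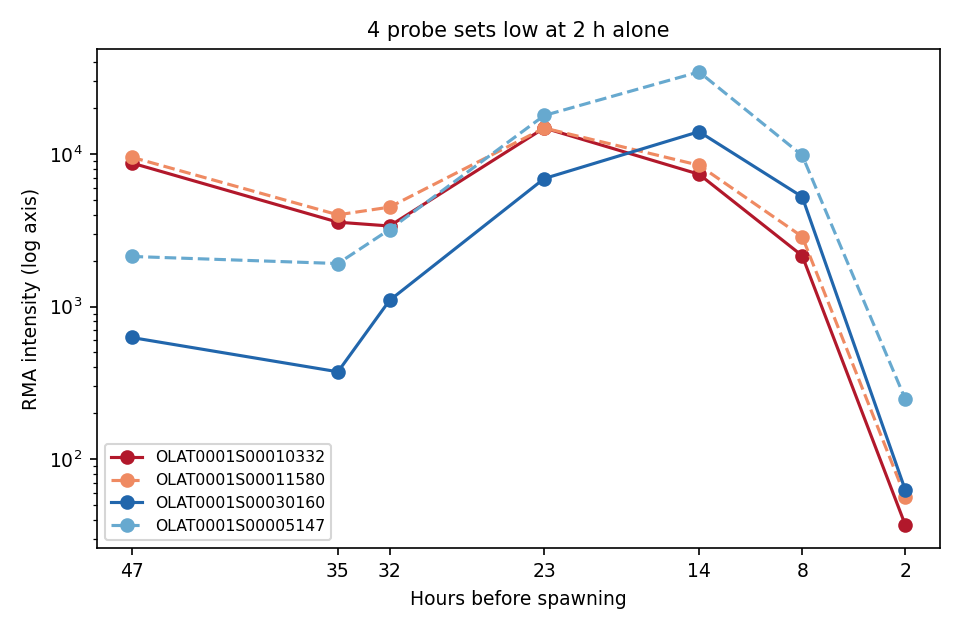
RMA intensity (log axis) on each of the 7 arrays, ordered by hours before spawning, for the 2 members with the largest gap (red and orange) and the 2 with the largest called upward slope over the 6 earlier arrays (dark and light blue). The first pair peaks at 23 h and the second at 14 h, and all 4 are lowest at 2 h, between 36.8 and 246.

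The next 8 members by gap did not all share one course. The third had intensities of 3813, 1722, 4708, 10071, 10375 and 4293 from 47 h to 8 h and 37.6 at 2 h, a 45.8-fold gap. The next lay between 21728 at 35 h and 59137 at 23 h and then at 510 at 2 h. The one after it had 17952, 21034, 19693, 12172, 12303 and 4921 before 2 h and 120 at 2 h. A high at 23 h or 14 h was thus seen in the first 2 of these but not in the other, which was highest at 35 h. The seventh was highest at 8 h, with 61250, and at 891 on the 2 h array, the only one of the first 10 that was at its peak 6 h before its low. The eighth stayed between 14739 and 25753 on the 6 earlier arrays, within a range of 0.81 on the log2 scale, and had 409 at 2 h.

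At the other end, the 3 members just inside the threshold had gaps of 2.000, 2.002 and 2.009. Their intensities at 2 h were 2206, 554 and 19.1, against lowest earlier values of 8826, 2219 and 76.9. The 3 probe sets just outside had gaps of 1.986, 1.981 and 1.980, with 68.0, 251 and 310 at 2 h against 270, 991 and 1223. The edge is therefore continuous, and a further 790 probe sets had 2 h alone below a largest gap of 1 to 2. Without the 8 h array the same rule gave 498 probe sets, 245 of them among the 247. Leaving out any other earlier array gave 247 to 312.

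Before the low at 2 h the members moved more than most probe sets. Their range over the 6 earlier arrays had a median of 2.19 on the log2 scale, against 1.10 for all kept probe sets. A range of 4-fold or more was seen in 143 members (57.9%), against 19.1% of all kept, and a range within 2-fold in 29 (11.7%), against 44.5%. The steadiest member was the one near the top of the scale, with the range of 0.36 given above. The next had intensities of 17605, 16758, 21288, 20291, 22754 and 19679 before 2 h and 3830 at 2 h. The rule bounds how far these levels can jump, because no other gap may exceed the one at 2 h. It names no direction between the earlier arrays but does not treat low and high levels alike. A low earlier level narrows the gap at 2 h, while a high one does not. The directions given below are therefore not free of the rule.

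The directions of these earlier movements were uneven. At 35 h, 50 members (20.2%) were 2-fold or more lower than at 47 h and 3 (1.21%) higher, where all kept probe sets gave 7.14% lower and 5.47% higher. At 32 h, 43 members (17.4%) were 2-fold or more higher than at 35 h and 1 (0.405%) lower, against 2.61% and 2.65% of all kept. At 23 h, 79 (32.0%) were higher than at 32 h and 10 (4.05%) lower, against 10.4% and 8.18%. At 14 h the members were closer to the rest, with 13 (5.26%) higher and 30 (12.1%) lower than at 23 h, against 3.93% and 4.41%. At 8 h, 112 (45.3%) were lower than at 14 h and 12 (4.86%) higher, against 15.5% and 10.3%. At 4-fold or more, 7 members were lower and 0 higher at 35 h (0.551% and 0.839% of all kept), and 7 were higher and 0 lower at 32 h (0.406% and 0.366%). At 23 h, 17 were higher and 3 lower by 4-fold or more (2.07% and 1.64%), at 14 h 3 and 8 (1.15% and 0.839%), and at 8 h 0 and 45 (3.02% and 3.41%). By these counts the members' largest shift before the low at 2 h was the lower level at 8 h. The steps to 35 h, 23 h and 8 h each pass between the 6-digit and the 8-digit arrays. Time and array-number series cannot be told apart in them. At 2-fold or more, the 100 probe sets low at 8 h and 2 h by the same rule were lower at 35 h in 21.0%. They were higher at 32 h in 18.0% and at 23 h in 17.0%. For the 112 low at 8 h alone these shares were 20.5%, 2.68% and 14.3%. The lower level at 35 h was thus not particular to the members. These counts compare pairs of arrays with no replicate and carry no test.

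**Figure D3:**
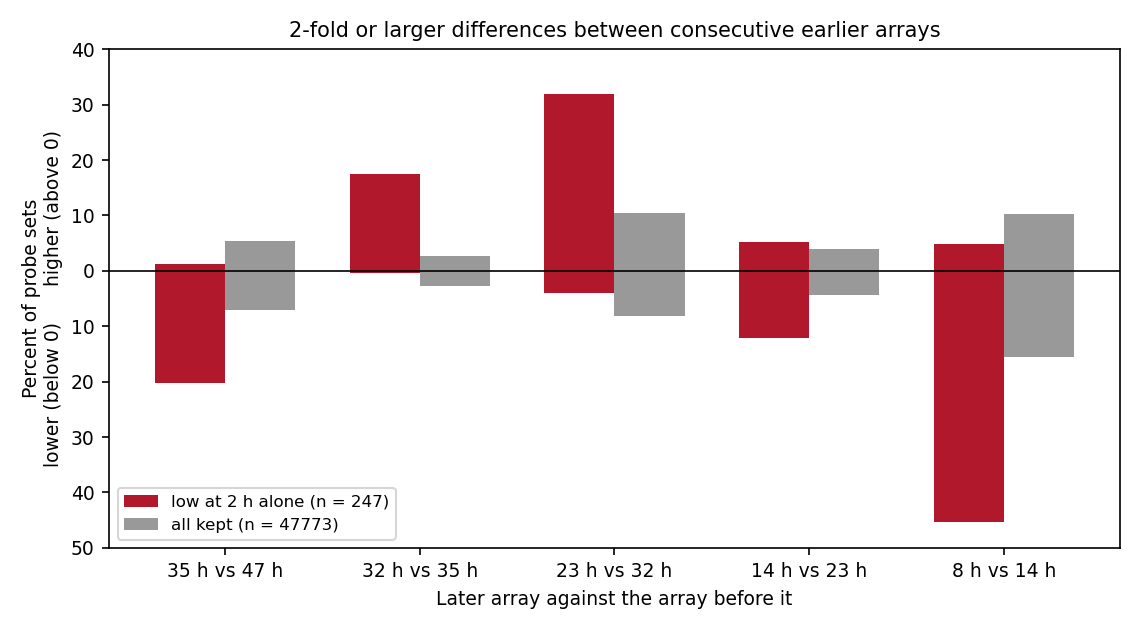
Percent of probe sets that differ 2-fold or more between an array and the one before it in time, higher above 0 and lower below, for the members (red) and all kept probe sets (grey). The members are mostly lower at 35 h (20.2%), higher at 32 h (17.4%) and 23 h (32.0%), and lower at 8 h (45.3%).

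A dip at 35 h was thus common among the members. The rule did not name it but did use the 35 h array, so the dip is not free of the rule. Of the 247, 163 (66.0%) were lower at 35 h than at both 47 h and 32 h, against 33.9% of all kept probe sets, and 21 (8.50%) were higher than at both, against 30.2%. The dip was mostly shallow. The 35 h level minus the mean of 47 h and 32 h had a median of -0.44 on the log2 scale in the members and -0.02 over all kept probe sets. It was 1.5-fold or more below both neighbours in 60 members (24.3%), against 4.17% of all kept, and 2-fold or more below both in 25 (10.1%), against 1.1%. The members also had a larger range over the earlier arrays (median 2.19, against 1.10). Shares past a fixed fold therefore do not compare sets of like spread. These 2 shares were 28.0% and 14.0% in the 100 probe sets low at 8 h and 2 h, and 8.04% and 2.68% in the 112 low at 8 h alone. The dip was thus not particular to the members. The 32 h array shares the 8-digit number series with the 35 h array. The dip rests on the single 35 h array. Centring each array on its median gave 154 members lower at 35 h than at both neighbours, against 31.4% of all kept, and quantile normalization gave 157, against 32.6%.

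The highest of the 6 earlier levels lay at 23 h in 83 members (33.6%) and at 14 h in 66 (26.7%), against 14.1% and 16.5% of all kept probe sets, together 149 (60.3%), against 30.6%. The 8 h array was the peak of 33 members (13.4%), 47 h that of 29 (11.7%), 32 h that of 25 (10.1%) and 35 h that of 11 (4.45%), against 18.2%, 20.6%, 12.7% and 18.0% of all kept. Their lowest earlier level lay at 35 h in 99 (40.1%), against 13.5% of all kept. It lay at 8 h in 92 (37.2%), which is near the 33.5% of all kept. The remaining 56 were lowest at 47 h (22), 14 h (15), 32 h (10) or 23 h (9), against 11.1%, 18.8%, 10.2% and 12.9% of all kept. Among the 660 probe sets that were high at 2 h alone by the same rule, the earlier peak lay at 23 h or 14 h in 23.5% and at 8 h in 37.1%, and the lowest earlier level at 35 h in 12.3%. Among the 100 probe sets low at both 8 h and 2 h, 60 (60.0%) were lower at 35 h than at both neighbours. In the same 100, 41 (41.0%) peaked at 23 h or 14 h, 37 (37.0%) of them at 23 h and 4 (4.0%) at 14 h. The share with a 23 h peak was thus close to the 33.6% of the members, while the 14 h share was below their 26.7%. The differences between these groups were not tested. The 23 h and 14 h arrays are of the 6-digit series and the 35 h and 8 h arrays of the 8-digit series. For these highs and lows, time and array-number series cannot be told apart.

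**Figure D4:**
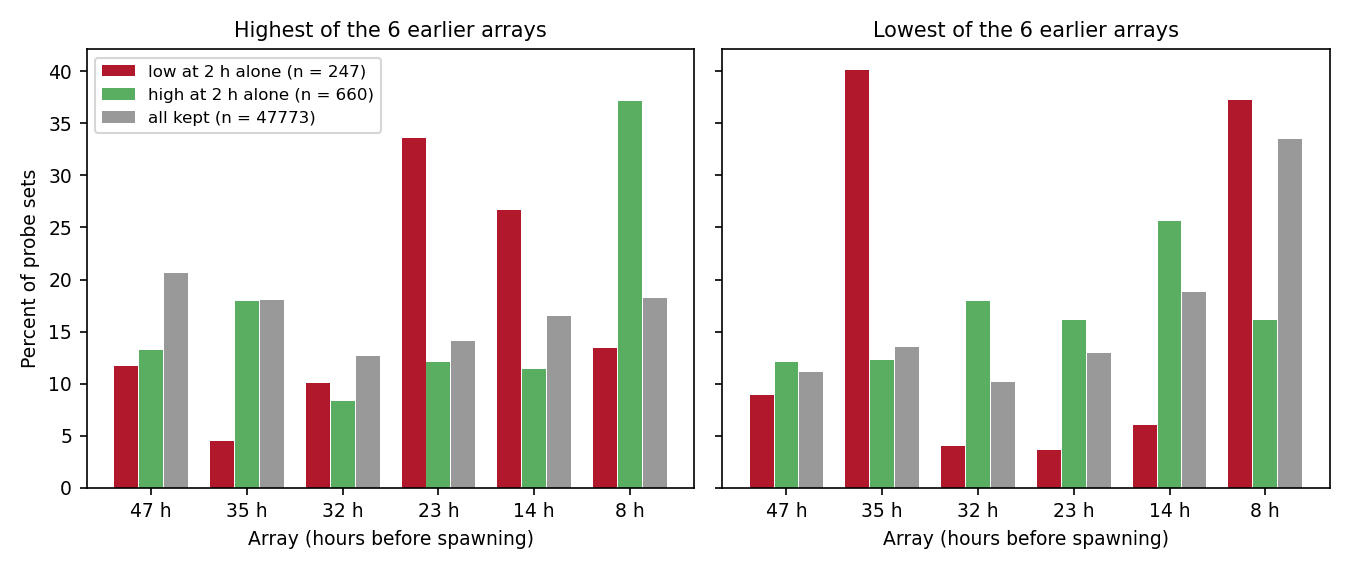
Array with the highest (left) and the lowest (right) level among the 6 earlier arrays, in percent of the members (red), of probe sets high at 2 h alone (green) and of all kept probe sets (grey). Members peak most often at 23 h (33.6%) and 14 h (26.7%) and are lowest most often at 35 h (40.1%) and 8 h (37.2%).

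The members could be described in 3 sets by the earlier array on which they were lowest, a split made after the values were seen. In the 99 that were lowest at 35 h, the median log2 level on the 7 arrays from 47 h to 2 h was 12.30, 11.32, 12.30, 13.56, 13.84, 12.78 and 7.92. That 14 h lies above 35 h in this set is fixed by the split, and the median difference was 2.00 on the log2 scale. At 14 h, 91 of the 99 (91.9%) were higher than at 47 h. This held for 37 of the 92 lowest at 8 h (40.2%) and 34 of the remaining 56 (60.7%). The split fixes part of these counts. In the 56, the 22 lowest at 47 h must lie above it at 14 h, and the 15 lowest at 14 h must lie below 47 h. The 99 and the 92 hold no such members, so nothing is read from the contrast. The difference between 2 h and 8 h had a median of -4.13, and 51 members (51.5%) were lower by 16-fold or more. The split leaves out members lowest at 8 h, which favours a large difference here.

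In the 92 that were lowest at 8 h, the medians on the same arrays were 12.46, 11.94, 12.31, 12.93, 12.25, 10.40 and 7.34. That 8 h lies below 14 h in this set is fixed by the split, which also shortens the interval from 8 h to 2 h. The difference between 8 h and 14 h had a median of -1.72 and that between 2 h and 8 h a median of -2.68, and 15 (16.3%) were lower by 16-fold or more in the last interval. The remaining 56 had nearly level medians of 11.27, 11.32, 11.51, 11.55, 11.29 and 11.59 from 47 h to 8 h and 8.23 at 2 h. The level medians pool unlike courses. The 22 lowest at 47 h had medians of 11.13 at 47 h and 12.50 at 14 h, and the 15 lowest at 14 h had 11.48 and 9.66. The median range of the 56 over the earlier arrays was 1.97, against 2.06 in the 99 and 2.43 in the 92. A test of a slope over those arrays called 9 of the 56, 14 of the 99 and 4 of the 92. Of all kept probe sets it called 2.45% as rising and 3.19% as falling. The split uses the same arrays as the slope, so nothing is read from these counts.

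**Figure D5:**
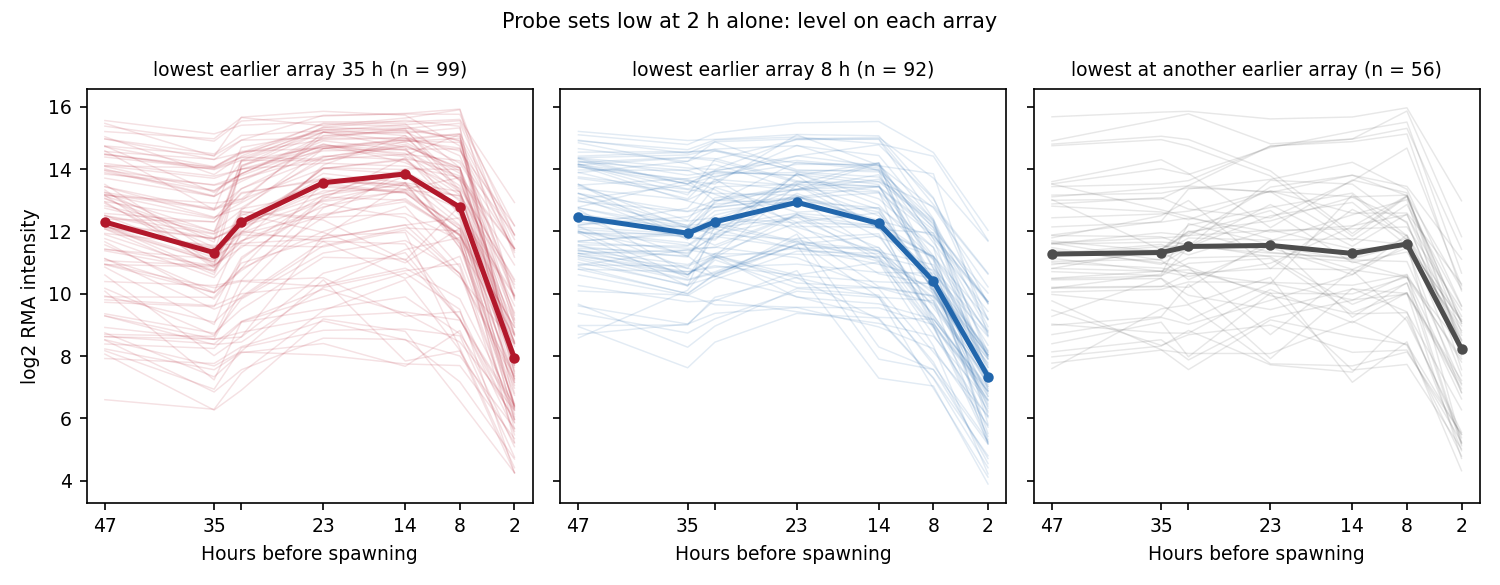
log2 RMA intensity of each member (thin lines) and the median (thick line with points) against hours before spawning, in the 99 members lowest at 35 h among the 6 earlier arrays, the 92 lowest at 8 h and the other 56. The first set peaks at 14 h (median 13.84), the second at 23 h (12.93), and the third stays between 11.27 and 11.59 until 8 h.

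At 8 h, 58 members (23.5%) were above their 14 h level, against 44.1% of all kept probe sets, and the other 189 were below it. The difference between 8 h and 14 h made up a median of 18.4% (quartiles 1.18% and 33.6%) of the log2 difference between 2 h and 14 h. The rule keeps 8 h 4-fold or more above 2 h and allows no larger gap elsewhere. It thereby holds this share down, and nothing is read from its size.

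Pairs of arrays taken 1 day apart share time of day and also the array-number series. At 23 h, 66 members (26.7%) were 2-fold or more higher than at 47 h and 10 (4.05%) lower, against 5.18% and 4.39% of all kept probe sets. At 8 h, 87 (35.2%) were lower than at 32 h and 32 (13.0%) higher, against 11.5% and 9.89%. The median difference of the members from the day before was 0.45 at 23 h and -0.41 at 8 h on the log2 scale. Over all kept probe sets it was -0.06 and -0.14. At 8 h the members' quartiles were -1.39 and 0.41, so both directions were common.

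Whether members followed a trend before 2 h was tested as a slope on hours over the 6 earlier arrays, without the 2 h array. The rule still drew on these 6 arrays, since the lowest of them sets the gap and no gap among them may be larger. The members' counts are therefore a description of chosen probe sets beside the background, with no test of the difference. The fit was made with limma on all 47773 kept probe sets and allowed for a shift between the number series. With the adjusted p held below 0.05, 20 members (8.10%) had a fitted rise from 47 h to 8 h and 7 (2.83%) a fitted fall, against 2.45% and 3.19% of all kept probe sets. At an unadjusted p below 0.05 the counts were 58 (23.5%) and 37 (15.0%), against 10.8% and 16.8% of all kept. The fitted change of the 20 was 1.46 to 5.12 on the log2 scale, with adjusted p of 0.0167 to 0.0471 (limma). In the 7 it was -4.79 to -2.38, with adjusted p of 0.0109 to 0.0495 (limma). The measured differences were smaller, but they are not a like measure. The 8 h level minus the 47 h level had a median of 1.59 in the 20 and -2.55 in the 7. The median fitted changes were 2.39 and -2.88. The fit allows for a shift between the number series, while the measured difference sets an array of one series against an array of the other. Over all members the median fitted change was 0.20, against -0.15 over all kept probe sets.

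OLAT0001S00030160 had the largest fitted rise among the members. Its intensities were 627, 373, 1096, 6905, 14013 and 5242 on the arrays from 47 h to 8 h, and 62.5 at 2 h. The fitted change over the 6 arrays was 5.12 ± 0.51 in log2 units (SE, adjusted p = 0.0167, limma). OLAT0001S00005147 came next, with 2130, 1914, 3198, 17898, 34544, 9799 and 246 at the 7 times and a fitted change of 4.07 ± 0.46 (SE, adjusted p = 0.0196, limma). Both were lowest before 2 h at 35 h and highest at 14 h, and both were already lower at 8 h than at 14 h, so the fitted rise is not a steady one. Without the array-number term their adjusted p was 0.144 and 0.182 (limma). OLAT0001S00030160 also missed the threshold without the 47, 35, 14 or 8 h array (adjusted p = 0.0545, 0.0665, 0.0639 and 0.0628, limma), and OLAT0001S00005147 without 35 or 14 h (0.0868 and 0.0741).

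Of the 20 that rose, 14 had their lowest earlier level at 35 h, 13 were highest at 14 h, 5 at 8 h and 2 at 23 h. The 5 that were highest at 8 h were at their peak on the array before the low. Of the 7 that fell, 6 were highest at 47 h and 1 at 35 h, while 4 had their lowest earlier level at 8 h and 3 at 14 h. A called rise over these arrays itself favours early lows and late highs, and a called fall the reverse. These positions therefore largely restate the call and are given as a description. The member with the largest fitted fall had intensities of 17162, 13031, 10331, 4051, 1199 and 979 from 47 h to 8 h and 181 at 2 h. Without the array-number term limma called 0 members and also 0 of all kept probe sets, so this 0 is not particular to the members. At an unadjusted p below 0.05 there were 67 members, against 95 with the term, and 8088 of all kept probe sets, against 13178. Without the 35 h array it called 0 members and 0 of all kept probe sets. Without 32 h, 3 members (1.21%) rose and 2 (0.81%) fell, against 0.502% and 0.44% of all kept. Without 14 h, 3 (1.21%) rose and 3 (1.21%) fell, against 0.525% and 0.605%. Without 8 h, 2 (0.81%) rose and 1 (0.405%) fell, against 0.414% and 0.337%. Without 47 h, 11 members (4.45%) rose and 14 (5.67%) fell, against 2.16% and 2.1% of all kept. Without 23 h, 12 (4.86%) rose and 14 (5.67%) fell, against 1.51% and 1.62%. Which direction stood further above the background thus depended on single arrays.

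Identifiers on the array are of 2 classes, one beginning K_OLAT and the other OLAT, whose meaning the sources used here do not state. The K_OLAT class made up 126 of the members (51.0%), against 35.5% of all kept probe sets, and also 45.5% of those high at 2 h alone, 48.2% of those low at 8 h alone and 57.0% of those low at 8 h and 2 h. The class share moves with signal level. Between the members' quartiles of mean earlier level, 69 of 123 members (56.1%) were of the K_OLAT class, against 27.2% of the kept probe sets in that range. The lowest earlier level lay at 35 h about as often in members of the K_OLAT class (52 of 126, 41.3%) as in those of the OLAT class (47 of 121, 38.8%). The full number of 6 probes stood behind 244 of the 247 members (98.8%), against 99.3% of all kept.

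The 247 probe sets need not be 247 transcripts. For 53 members another member lay within 0.5 on the log2 scale on all 7 arrays, which made 30 pairs. In 10 of the 30 pairs the identifiers were of different classes. Consecutive identifier numbers occurred in 5 pairs of K_OLAT members and in 0 pairs of OLAT members. Whether such pairs measure the same transcript was not tested.

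Across the 247 members the 2 h array correlated with the earlier arrays at r = 0.694 (23 h) to 0.801 (8 h), against 0.842 to 0.874 over all kept probe sets. The rule picks members by a 2 h level that departs from the rest, so nothing is read from that difference. Among the earlier arrays, 8 h and 47 h correlated at 0.730 in the members and 0.841 over all kept, and 32 h and 35 h at 0.945 and 0.976. The members' earlier levels span a narrower range (quartiles 10.80 and 13.60, against 8.62 and 12.20 of all kept). A narrower range in itself lowers a correlation across probe sets, so nothing is read from these differences. These correlations are across probe sets, which share the arrays and are not independent replicates.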

How the data were processed

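The authors deposited RMA values, per the file headers: 1 linear intensity per probe set and array. RMA in general corrects background, normalizes and summarises probes, and the sources used here state no version or settings. Values were log2-transformed, and the filter dropped probe sets whose mean over the 7 arrays did not exceed the 25th percentile (6.24). Each array took its time from the stage label. The slope was fitted on all 47773 kept probe sets with lmFit and eBayes of limma 3.58.1 in R 4.3.3, after a test on simulated data, with Benjamini-Hochberg adjustment. All other values are counts and medians without a test (Python 3.11.15, pandas 2.3.3). The number of arrays limits the precision, and p-values measure only the spread of single arrays about the line. The members, comparisons and rules were chosen with earlier results of these data known. Identifiers matched 0 of 26845 genes in the RefSeq table used here, so the planned gene lists and cell type markers were not applied, and the tissue was not checked by markers. By rule, the identifiers named are the 2 members with the largest gap and the 2 with the largest called rise; other members are given by their values. Alternatives left out the filter or set it at the 50th percentile, changed the gap, added an offset of 64 before log2, normalized by quantiles or centred the arrays, left out arrays or used the series table's times.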

Additional observations from a re-analysis of the deposited data

How the results depend on the processing

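The group held 1037 probe sets at a gap of 1, 83 at a gap of 3, 832 with the 6-digit arrays alone (240 of them members) and 2 with the times of the series table (0 shared). With the table's times all 247 stand at 23 h. Leaving out 1 earlier array gave 247 to 498. No filter, the 50th percentile filter, the offset of 64, quantile normalization and centring gave 169 to 274. At 4-fold, the 5 intervals in time order held 7, 7, 20, 11 and 45 members, with the balance of directions as at 2-fold. With each array centred on its median, the members 2-fold or more higher and lower were 3 and 43 at 35 h and 44 and 1 at 32 h. They were 63 and 17 at 23 h, 14 and 29 at 14 h, and 16 and 100 at 8 h. The shares of all kept probe sets were not taken for these centred counts. Below the 10th percentile of the 2 h array lay 16 members. The slope (limma) called 27 members, 43 with an intensity-dependent robust prior, 22 to 35 with other settings, 0 without the array-number term, and 0 with the table's times (75 at an unadjusted p below 0.05). Leaving out 1 array gave 0 to 26 (71 at an unadjusted p below 0.05 without the 35 h array, where limma called 0). More fell than rose among the 25 without 47 h and the 26 without 23 h. Each setting that called 0 members also called 0 of all kept probe sets. With the table's times the slopes of OLAT0001S00030160 and OLAT0001S00005147 turned to -2.89 and -2.92 (adjusted p = 0.843 and 0.820, limma). With the offset of 64 the gaps of OLAT0001S00010332 and OLAT0001S00011580 were 4.46 and 4.61. After the data were seen, centring and quantile normalization were added for the dip at 35 h (154 and 157 members, against 163) and for the peaks at 23 h or 14 h (137 and 147, against 149). An offset keeps the order of the values and cannot move the dip count. No paired analysis was possible because each time has 1 array.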

Other observations

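The rule left out 9 probe sets that were also 4-fold or more below every other array at 2 h, because another gap was larger. One of these had intensities of 214 and 221 at 47 h and 35 h, 3126, 8290, 12371 and 6565 from 32 h to 8 h, and 29.8 at 2 h. Another had 813 to 2333 from 47 h to 14 h, 16835 at 8 h and 193 at 2 h. With these the number of probe sets lowest by 4-fold at 2 h is 256.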
